A study of Mus musculus with 4 samples.

Results

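Patterning transcription factors of the mesoderm were followed in immortalized mouse brown preadipocytes, the cultured precursor cells of brown fat, with and without the histone methyltransferase G9a. The 42 genes considered encode homeobox factors outside the Hox clusters, T-box factors, forkhead factors and a few other regulators of the embryonic mesoderm. They were taken by name, as probe sets of the array that carry exactly 1 gene symbol. This gave 41 genes with 84 probe sets, out of 18193 genes with such a probe set in the whole table. Runx2 is not analysed here. All 4 arrays came from cells of mixed C57/BL6-129 strain whose G9a gene was floxed (G9a f/f). The 2 arrays labelled Vec are the vector cells, given as wild type, and the 2 labelled Cre are given as G9a knock out. Each group holds a number 1 and a number 2. The labels do not give the delivery of Cre, the origin of the arrays within a group, or whether a line was 1 clone. P-values therefore measure only the spread between these samples, which may be technical, and having 4 arrays limits all precision. Arrays of 1 number shared a pattern of sex-linked transcripts that differed from the other number, so comparisons were also made within numbers.

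Factors of this kind divide the embryonic mesoderm into regions and tissues. Paired-related homeobox, Twist and Snail factors mark mesenchyme, Tbx and Pitx factors distinguish limbs and body segments, Eya proteins are coactivators of Six2, Six4 and their relatives in the somite and its derivatives, and Sox9 starts the cartilage programme. Brown fat of the back arises from the dermomyotome, the somite layer that also gives dermis and skeletal muscle, and En1 is a classical marker of its central part. Fat precursors kept in culture often retain the expression of such factors from the site where they arose.

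Promoter sequences are shown for 3 members on which the results below turn: Msx2, which rose in Cre cells when arrays of 1 number were paired, and Prrx1 and Six2, which were lower in number 2 than in number 1. RefSeq entries (build GRCm38.p6) were matched by symbol for 25 of the 42 members; Sox9 had none. Each sequence is the 250 bases before the annotated start, outside the gene itself, and capitals mark TAATTA, the core bound by many homeodomain proteins, where it occurs. Msx2 lies at chr13:53472781-53473030, Prrx1 at chr1:163313651-163313900 and Six2 at chr17:85688255-85688504, all on the minus strand.
Msx2: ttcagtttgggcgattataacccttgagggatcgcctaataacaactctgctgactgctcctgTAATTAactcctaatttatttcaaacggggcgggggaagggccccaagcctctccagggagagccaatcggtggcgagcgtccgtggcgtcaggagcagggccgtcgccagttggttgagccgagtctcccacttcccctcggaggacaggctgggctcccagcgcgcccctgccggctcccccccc
Prrx1: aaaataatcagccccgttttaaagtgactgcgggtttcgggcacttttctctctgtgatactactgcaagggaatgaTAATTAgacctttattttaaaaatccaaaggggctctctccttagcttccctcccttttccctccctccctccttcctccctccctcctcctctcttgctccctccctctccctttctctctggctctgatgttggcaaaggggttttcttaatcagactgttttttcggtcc
Six2: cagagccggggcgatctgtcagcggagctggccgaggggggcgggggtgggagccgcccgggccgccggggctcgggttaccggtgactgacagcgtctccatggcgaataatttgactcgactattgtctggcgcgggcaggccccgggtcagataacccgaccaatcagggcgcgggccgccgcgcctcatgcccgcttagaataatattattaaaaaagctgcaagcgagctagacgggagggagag

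In these windows TAATTA, which reads the same on both strands, occurs once in Msx2, starting 187 bases before the start, once in Prrx1, at 173 bases, and not in Six2. It was found in 2 of the 28 member windows (7.14%), those of Msx2 and Prrx1, and in 4.84% of all 32851 windows of the same length. The windows differed in composition. CpG dinucleotides occurred at 0.677 of the frequency that the base content predicts in Msx2, at 0.321 in Prrx1 and at 1.02 in Six2. The median was 0.681 over the member windows and 0.374 over all windows, which include those of non-coding genes. GC boxes (GGGCGG, both strands) were present in 57.1% of member windows and in 32.7% of all windows. CCAAT boxes (CCAAT, both strands) were present in 60.7% and 33.8%. E-boxes (CANNTG, bound by Twist and Snail factors among many others) were present in 53.6% and 66.2%. A match is a description of these letters, and binding was not measured.

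The deposited values are signal intensities on a linear scale. Array medians lay between 50.6 and 78 units. The targeted gene was checked first: Ehmt2, which encodes G9a, read 2682 and 2688 in vector numbers 1 and 2 and 953 and 912 in Cre numbers 1 and 2. Its difference was -1.49 ± 0.20 (SE, n = 2 against 2), on the scale of log2(quantile-normalized signal + 16) used for all differences here (limma adjusted p = 0.227). When the replicate number entered the model as a block, the adjusted p was 0.000281. The labels leave the deleted exons unnamed, and probes outside the deletion are no check of it. Of 7 preadipocyte and mesenchymal markers on the array, 6 passed the level filter, Ebf2, Pdgfra and Pdgfrb among them. The 5 endothelial markers did not pass it. None of the muscle regulators Myf5, Myod1 and Myog read above 40.3 units on any array.

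A member was called expressed in vector cells when its brightest probe set lay at or above the median of all probe sets, 62.1 units after normalization, on both vector arrays. By that rule 25 of the 41 members were expressed, against a background of 58% of all genes. They were Prrx1 and Prrx2; Dlx1, Dlx2, Msx1 and Msx2; Meox1, En1, Meis1 and Meis2; Six2 and Six4; Tbx3, Tbx15 and Tbx18; Twist1, Twist2, Tcf15, Snai1 and Snai2; Foxc1, Foxc2 and Foxf2; and Runx1 and Sox9. Eya1 and Tbx5 were above the line on 1 of the 2 vector arrays only. The other 14 members read from 0.8 to 67.4 units over the 4 arrays, and their brightest probe sets did not pass the level filter for testing. These were Alx1, Alx4 and Pitx1, the factors Dlx3, Dlx5 and Dlx6, Meox2, the T-box genes Tbx1, Tbx2 and Tbx4, the forkhead genes Foxd1 and Foxf1, and Pax1 and Pax9. A level at the 75th percentile on both vector arrays was reached by 10 of the 41 members, against 36.8% of all genes. These 10 were Prrx1, Prrx2, Six2, Tbx15, Twist1, Twist2, Snai1, Snai2, Foxc1 and Foxc2.

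**Figure D1:**
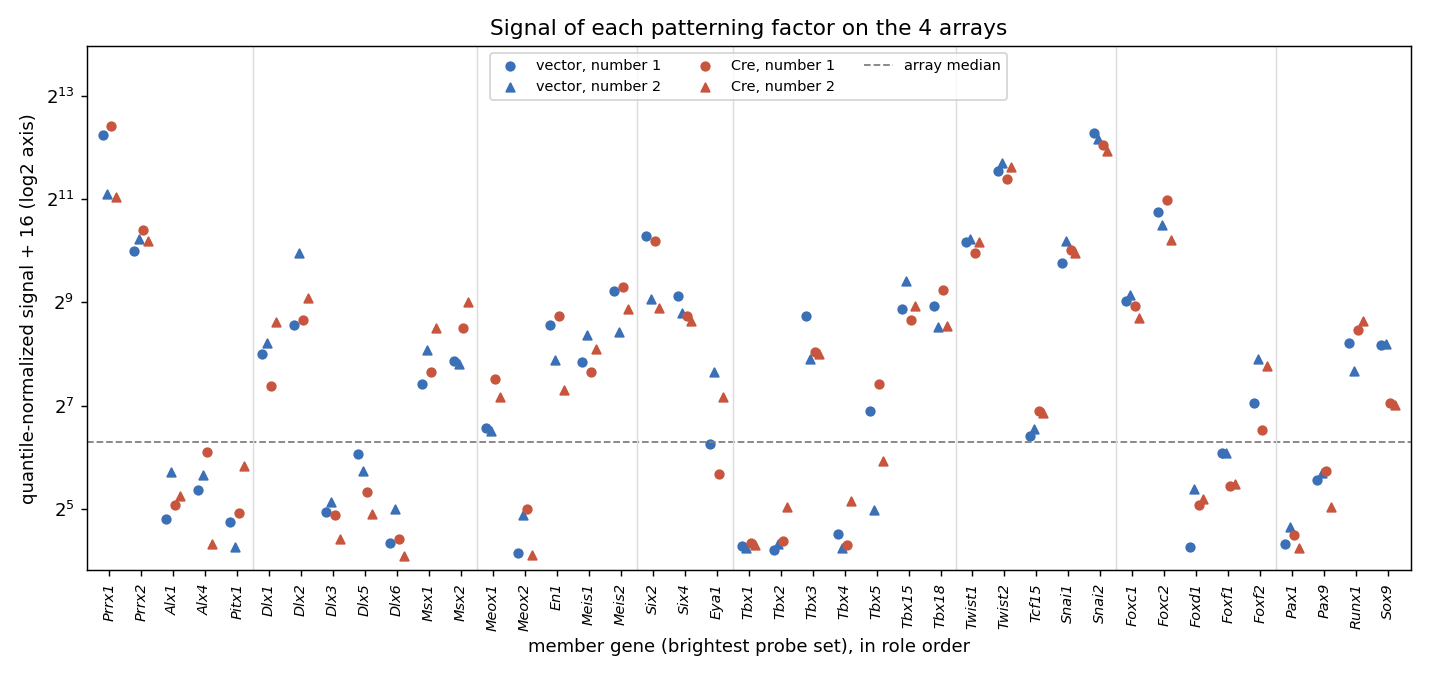
Quantile-normalized signal plus 16 (log2 axis) of the brightest probe set of each of the 41 members on each array, with circles for number 1, triangles for number 2, blue for vector and red for Cre cells, and pale lines between role groups. The dashed line is the array median; all 4 points of Prrx1, Twist2 and Snai2 lie far above it, and those of Tbx1, Tbx2 and Pax1 lie below it.

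Several members are neighbours on a chromosome. Members without another protein-coding gene between them in the RefSeq annotation are Dlx1 and Dlx2 on chromosome 2, Dlx5 and Dlx6 on chromosome 6, Tbx2 and Tbx4 on chromosome 11, Tbx3 and Tbx5 on chromosome 5, and Foxc1 and Foxf2 on chromosome 13. Foxf1 and Foxc2, on chromosome 8, have 1 gene between them. Both Dlx1 and Dlx2 were expressed and neither Dlx5 nor Dlx6 was. Both Foxc1 and Foxf2 were expressed, whereas Foxc2 was expressed and Foxf1 was not.

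Cre and vector cells were then compared over all 22519 probe sets that passed the level filter, of which 27 were brightest probe sets of members. Without pairing the arrays, 0 of the 27 members passed a limma adjusted p of 0.05 in either direction, against 0% of all 11079 genes tested (0 higher and 0 lower). At an unadjusted p under 0.05, Msx2 and Meox1 were higher and Sox9 was lower, against 3.8% and 1.27% of all genes. With the replicate number as a block, Msx2 rose and Sox9 fell, so 1 of 27 members rose and 1 fell, against 3.25% and 0.984% of all genes. The median difference over the 27 members was -0.12, with 11 of them positive, beside 0.0073 over all genes, with 5660 of 11079 positive. Within numbers 1 and 2 the member medians were 0.08 and -0.06, and those over all genes were 0.028 and -0.0068.

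Sox9, the regulator that starts cartilage formation, showed the widest difference of the 27. Its brightest probe set read 287.5 and 250.5 units in vector numbers 1 and 2, and 135 and 99.5 in Cre numbers 1 and 2. Both Cre arrays lay below both vector arrays. The difference was -1.16 ± 0.24 (SE; 95% interval -1.74 to -0.58), a 2.23-fold lower signal, with limma adjusted p = 0.486 without the block and 0.0159 with it. Within numbers 1 and 2 it was -1.12 and -1.20. A second probe set read 301 and 291 in vector cells and 81.2 and 97 in Cre cells, a difference of -1.66, and it too passed with the block (limma adjusted p = 0.00333). The third read between 8.6 and 24.5 units and was not tested. Sox9 was the only one of the 27 members that was at least 2-fold apart in the mean without overlap of the groups, against 2.18% of all genes in the higher direction and 0.569% in the lower. It was also the only one at least 2-fold apart within both numbers, against 1.44% higher and 0.316% lower.

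Msx2, a homeobox repressor downstream of BMP signalling in skull and limb, was higher in Cre cells. It read 231 and 185 units in vector numbers 1 and 2 and 376 and 476.5 in Cre numbers 1 and 2. The groups did not overlap. The difference was 0.92 ± 0.27 (SE; 95% interval 0.25 to 1.58), 1.89-fold, with limma adjusted p = 0.865 without the block and 0.0426 with it, and 0.64 and 1.20 within numbers 1 and 2. Among the 9 settings of the blocked fit that gave it a value, Msx2 passed in 4, with adjusted p-values from 0.0162 to 0.224. Sox9 passed in 7 of 9, with values from 0.00929 to 0.165. A second, dim probe set of Msx2 read 32.8 and 15.2 units in vector cells and 46 and 20 in Cre cells.

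**Figure D2:**
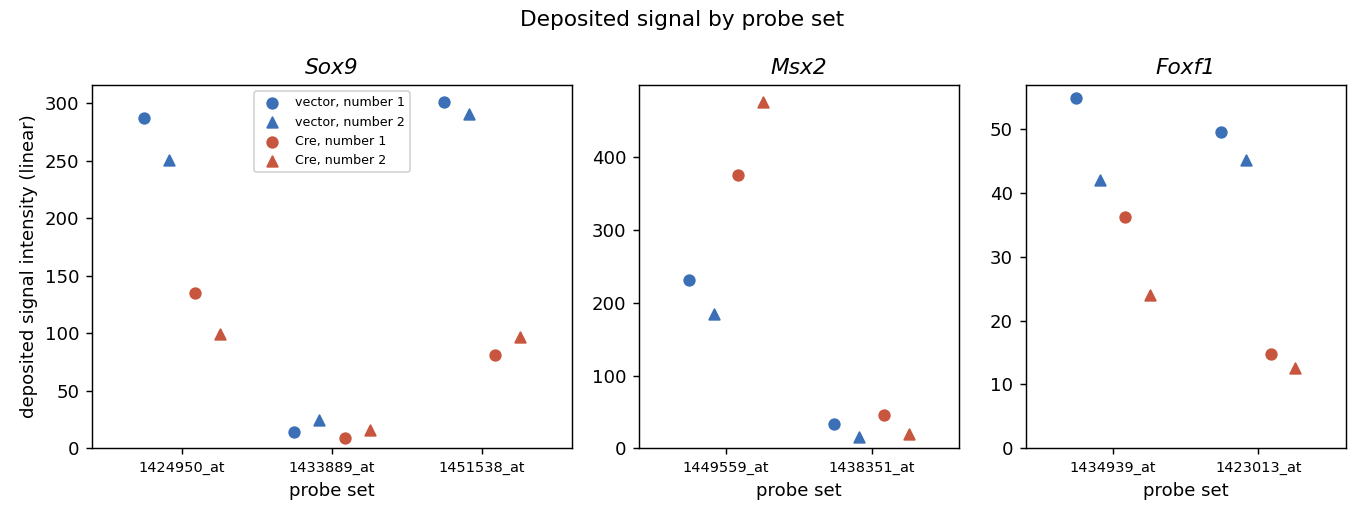
Deposited signal intensity (linear axes from 0, differing between panels) of every probe set of Sox9, Msx2 and Foxf1 on each array, blue for vector and red for Cre, circles for number 1 and triangles for number 2. In 2 of the 3 Sox9 probe sets both Cre arrays lie far below both vector arrays, and in the brighter Msx2 probe set both lie above.

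Sox9 and Msx2 are also expressed by cells of the neural crest and skeleton, and marker sums of some other cell types differed with Cre. The summed normalized signal of the 3 neural crest and Schwann markers on the array was 248 and 127 in vector cells and 961 and 333 in Cre cells. In Cre cells most of it was Ngfr, the low-affinity nerve growth factor receptor gene, which read 118 and 17.7 units in vector and 724.5 and 190 in Cre cells. Sox10, the defining factor of that lineage, read 140 and 83.9 against 274 and 96.8, and S100b stayed at or below 13.6 units. The 6 skeletal muscle markers summed to 347 and 250 in vector and 558 and 535 in Cre cells, of which Acta1 and Des made up most. The 5 endothelial markers, none of which passed the level filter, summed to 123 and 59 in vector and 235 and 137 in Cre cells. The 5 adipocyte markers summed to 410 and 1063 in vector and 668 and 969 in Cre cells. The 6 macrophage and leukocyte markers summed to 789 and 874 against 912 and 848. Both of these sums were higher with Cre in number 1 and lower in number 2. The 4 keratinocyte markers summed to 102 and 82.5 against 108 and 114. The 7 preadipocyte and mesenchymal markers summed to 11236 and 11457 in vector and 8403 and 11752 in Cre cells, lower in number 1 only. Of these, Dlk1, a preadipocyte surface protein gene, read 5421 and 5238 units in vector and 1690 and 4882 in Cre cells. The part of these cells or transcripts in the Sox9 and Msx2 differences was not tested. In such bulk samples, fewer cells of a type and less RNA per cell cannot be told apart.

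Among the other homeobox members, Meox1, a somite factor, lay higher in both numbers without passing in either fit. It read 85.5 and 61.1 units in vector cells and 188 and 113 in Cre cells, with no overlap of the groups, a difference of 0.81 ± 0.28 (limma adjusted p = 0.999, and 0.133 with the block). Msx1, the paralogue of Msx2, read 169 and 227 in vector and 208.5 and 322 in Cre cells, and its groups overlapped (0.33 ± 0.38). Meis1 and Meis2, cofactors that bind DNA with Hox and Pbx proteins, differed by -0.24 ± 0.31 and 0.26 ± 0.35. Dlx1 and Dlx2, adjacent genes that act redundantly in the branchial arches, had differences of opposite sign in each number. Dlx1 differed by -0.63 in number 1 and 0.41 in number 2, whereas Dlx2 differed by 0.11 and -0.88. The dermomyotome marker En1 differed by 0.16 and -0.58. The mesenchymal factors Prrx1 (0.17 and -0.05) and Prrx2 (0.40 and -0.03) showed small differences whose sign changed between the numbers. The Prrx1 difference also turned negative when arrays were centred on their medians (-0.065). Of the 5 tested Prrx1 probe sets, 2 were higher in the mean, and the means ran from -0.41 to 0.08. The lowest was lower within both numbers (-0.17 and -0.65, limma adjusted p = 0.329 with the block).

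The brightest probe sets of Six2, Six4 and Eya1 all lay lower in both numbers. Six2 differed by -0.09 and -0.18 within numbers 1 and 2, Six4 by -0.39 and -0.16, and Eya1, a coactivator and phosphatase that works with them, by -0.59 and -0.48. None passed in either fit (limma adjusted p = 0.364 to 0.753 with the block). The 2 other tested Six4 probe sets differed by 0.18 and 0.25 in the mean, so the direction of Six4 is not settled.

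No T-box member passed in either fit. Tbx15, a factor of dorsal skin and of brown and subcutaneous fat precursors, read 477.5 and 643 units in vector and 415 and 449 in Cre cells. It was lower in both numbers (-0.35 ± 0.29 without the block and ± 0.18 with it, limma adjusted p = 0.390 with the block). As deposited, both Cre arrays lay below both vector arrays, but after normalization the groups overlapped. Tbx18, a factor of the anterior somite, differed by 0.30 and 0.01 within the numbers, and Tbx3 by -0.70 and 0.11. Tbx5, the forelimb factor, read 113 and 12.2 in vector numbers 1 and 2 and 177 and 37.3 in Cre numbers 1 and 2. It was thus higher in Cre cells within each number, by 0.53 and 0.95 (0.74 in the mean), but the numbers differed far more than the genotypes. For this comparison Tbx5 passed the level filter only through the Cre cells, in which it was high. The difference of 0.74 therefore carries no test here. Its second probe set, below the filter, differed by -0.46.

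Mesenchymal regulators of the Twist and Snail families differed little between the genotypes. Twist1 read 1167 and 1183 units in vector and 981 and 1102 in Cre cells, a difference of -0.14 ± 0.22. Twist2 read 2938.5 and 3374 against 2589 and 3228 (-0.12 ± 0.19; 95% interval -0.57 to 0.34). Snai2, known as Slug, read 4750 and 4682.5 against 4032 and 3977, so both Cre arrays lay below both vector arrays by a small amount (-0.23 ± 0.15). A second Snai2 probe set, which lacks the suffix for possible matches to several transcripts, differed by 0.23 in the other direction. Snai1 (0.010 ± 0.25) and the somite factor Tcf15 (0.40 ± 0.27) did not pass either, and the sign of Snai1 changed with the scaling (-0.034 as deposited and -0.14 with median centring).

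The 3 forkhead members that were tested, Foxc1, Foxc2 and Foxf2, differed by -0.27 ± 0.24, -0.03 ± 0.31 and -0.33 ± 0.50. Both probe sets of Foxf1, a lateral mesoderm factor, lay below the level filter and so outside the fit. The first read 54.8 and 42.1 units in vector and 36.2 and 24 in Cre cells, and the second 49.6 and 45.1 against 14.7 and 12.5. In both probe sets the Cre arrays lay below the vector arrays, by -0.61 and -1.21 in the mean. When no level filter was used, 0 members passed in limma at an adjusted p of 0.05, with or without the block. The blocked fit then called 43 of all 18193 genes higher and 9 lower. Runx1, a haematopoietic and mesenchymal Runt factor, read 298 and 165 in vector and 368 and 358 in Cre cells. In this brightest probe set the groups did not overlap (0.61 ± 0.28; limma adjusted p = 0.204 with the block), and all 6 tested probe sets were higher in the mean, by 0.03 to 0.61. In some of the 6 the sign changed between numbers 1 and 2, most widely at -0.45 and 0.61.

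Counted over all 27 tested members, 4 had both Cre arrays above both vector arrays (Msx2, Meox1, Tcf15 and Runx1), against a background of 17.5% of genes, and 5 had both below (Six4, Twist1, Snai2, Foxc1 and Sox9), against 13.6%. Within the numbers, 8 members were higher in both (background 32.8%), 11 lower in both (30.2%) and 8 of opposite sign (36.9%). None of these counts stands far from the share over all genes. Of the 12 members with at least 2 tested probe sets, 6 had the same sign of the Cre difference in all of them.

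**Figure D3:**
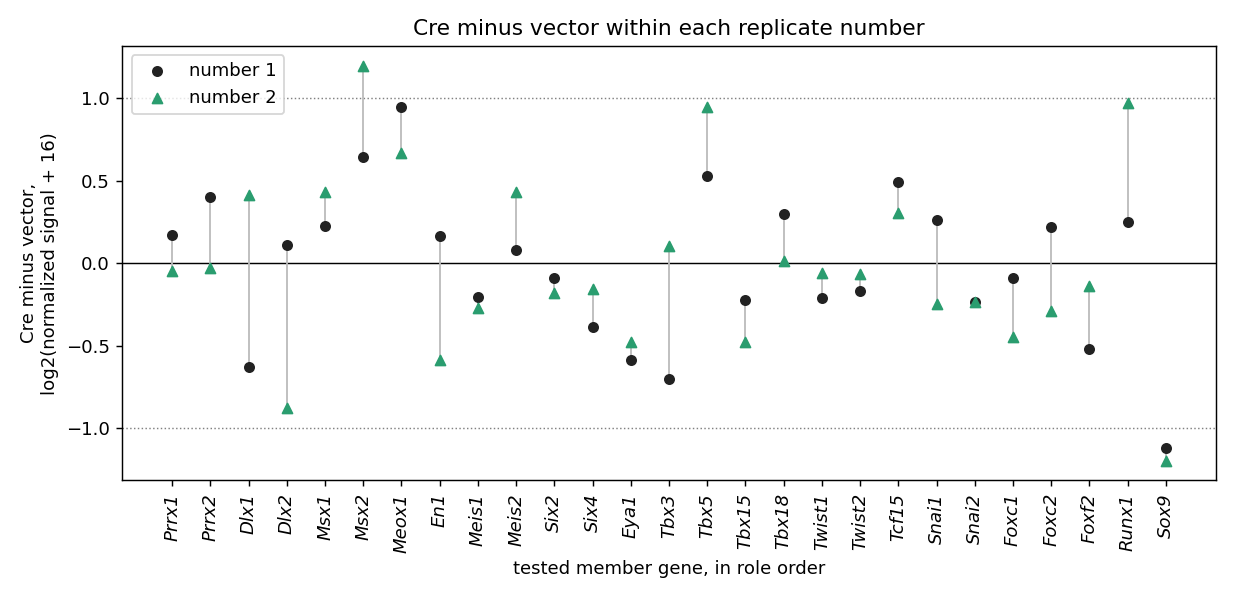
Cre minus vector on the scale of log2(normalized signal + 16) for each of the 27 tested members, within number 1 (circles) and number 2 (triangles); grey lines join the numbers and dotted lines mark a 2-fold difference. Sox9 lies below the lower dotted line in both numbers, and 8 members have points on opposite sides of 0.

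More members passed between the replicate numbers than between the genotypes. With genotype in the model, 4 of the 27 members were higher in number 2 (Dlx2, Msx1, Eya1 and Foxf2), against a background of 8.46% of genes, and 5 were higher in number 1 (Prrx1, En1, Meis2, Six2 and Tbx5), against 8.26%. Of these, Eya1 and Tbx5 passed the level filter only through the number in which they were high. In 17 of the 27 the mean difference between numbers was larger than that between genotypes, against 61.6% of genes, and in 16 the numbers did not overlap, against 53.5%. Of the 27, 1 (Eya1) was at least 2-fold higher in number 2 in both vector and Cre cells, against 0.848% of genes, and 3 (Prrx1, Six2 and Tbx5) were so in number 1, against 1.26%. With the scaling as deposited 11 members passed, beside 1125 genes higher and 1546 lower in number 2 among all 11074 tested. Msx1 no longer passed there (0.49, limma adjusted p = 0.108). With median centring 13 members passed, beside 3751 genes higher and 426 lower of 11074. Meis2 no longer passed there (-0.38, limma adjusted p = 0.182). The signs of the 9 were the same in both, although median centring raised the median difference over all genes from 0.0016 to 0.32. It also changed the share of called genes that were higher in number 2 from 50.6% to 89.8%, and the deposited scaling gave 42.1%.

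Prrx1, which marks limb and dermal mesenchyme and many fat precursors, read 4676 (vector) and 5190 (Cre) units in number 1, against 2211 and 2117 in number 2. The difference was -1.26 ± 0.12 (SE), 2.40-fold, with a limma adjusted p of 0.000241. All 5 tested Prrx1 probe sets were lower in number 2, by -0.75 to -1.64, and all 5 passed. Six2, a somite and kidney progenitor factor, showed the same order at 1254.5 and 1148 in number 1, against 495 and 435 in number 2 (-1.26 ± 0.17; limma adjusted p = 0.00143). Both Prrx1 and Six2 were also called between the numbers without the level filter, but neither was without the intensity trend in limma. In their brightest probe sets these 2 genes did not differ detectably with genotype. Their 95% intervals for Cre minus vector with the block were -0.21 to 0.33 and -0.50 to 0.23.

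Tbx5, whose signals are given above, was higher in number 1 and lay below the array median in number 2 in both genotypes. Its difference of -1.71 carries no test here, because it passed the level filter only through number 1, and without the filter it was not called. Its neighbour Tbx3 differed in the same direction by -0.43 ± 0.23 without passing, while 1 of its 2 further tested probe sets passed (-0.82; limma adjusted p = 0.0392). En1 read 385 and 435.5 in number 1, against 197 and 128 in number 2 (-1.05 ± 0.23; limma adjusted p = 0.0136). Meis2 passed in its brightest probe set (-0.62 ± 0.19; limma adjusted p = 0.0495), but another probe set differed by 0.53 in the opposite direction, so its order is not settled. Further probe sets also differed for members whose brightest one did not pass. The second Snai2 probe set read 1282 and 1686 in number 1, against 514 and 524 in number 2 (-1.41; limma adjusted p = 0.000957), while the brightest differed by -0.11. Both other tested Six4 probe sets were also higher in number 1. They read 481 and 409 units there against 139 and 231 in number 2 (limma adjusted p = 0.0183), and 454 and 437 against 139 and 223 (-1.04; limma adjusted p = 0.0114), while the brightest differed by -0.21.

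In the other direction, Eya1 read 65.5 (vector) and 45.6 (Cre) units in number 1, against 163 and 114 in number 2. Both number 2 arrays lay above both number 1 arrays, by 1.44 in the mean. That difference carries no test either, since Eya1 passed the level filter only through number 2 and was not called without the filter. Foxf2, a forkhead factor of palate and gut mesenchyme, read 127 and 93.6 against 198 and 183 (1.04 ± 0.24; limma adjusted p = 0.0164). Dlx2 read 383 and 417.5 in number 1, against 973 and 503 in number 2 (0.91 ± 0.23; limma adjusted p = 0.0260), so most of its difference lay in the vector cells. Dlx1, next to it on the chromosome, differed by 0.72 ± 0.26 and did not pass, and there the difference lay in the Cre cells (0.20 in vector and 1.24 in Cre). Msx1 passed at 0.75 ± 0.21 (limma adjusted p = 0.0356), but its other tested probe set differed by 0.33 and did not pass (limma adjusted p = 0.460). Sox9 and Msx2, called between the genotypes only with the block, differed by -0.0043 ± 0.22 and 0.23 ± 0.21 between the numbers. The sign of this Sox9 difference changed with the scaling.

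**Figure D4:**
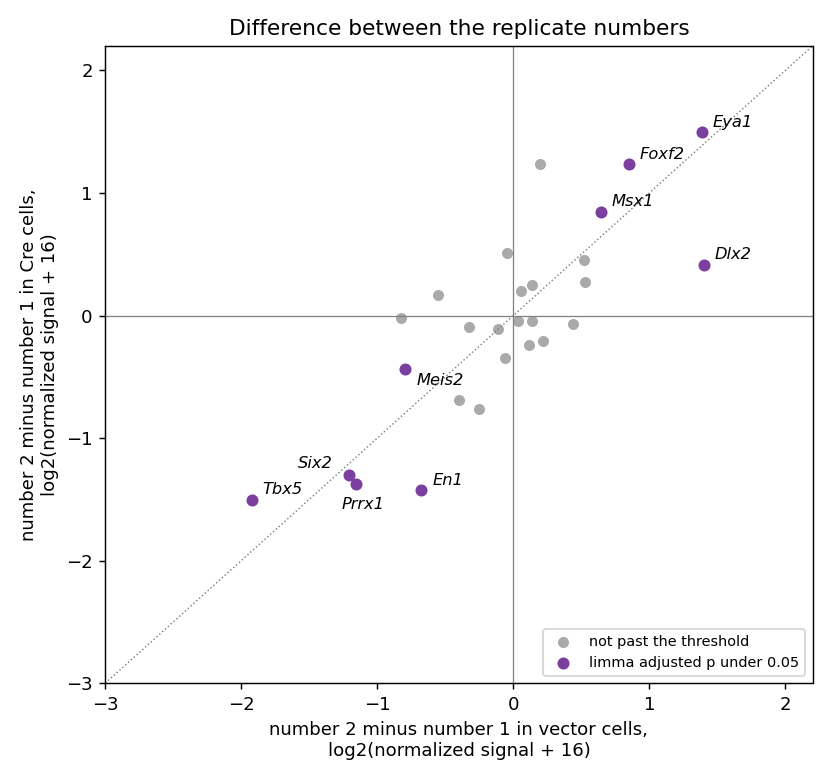
Number 2 minus number 1 on the scale of log2(normalized signal + 16) for the 27 tested members, in vector cells (horizontal) against Cre cells (vertical), with a dotted line of equal differences. The 9 members past the threshold, named, lie in the upper right or lower left, from -1.92 in vector cells for Tbx5 to 1.49 in Cre cells for Eya1. Tbx5 and Eya1 passed the level filter only through the number in which they were high, so their calls carry no test.

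Other patterning factors outside this set were read from a list of 74 names, 37 of them tested. The background with the block was 3.25% of all genes higher and 0.984% lower. With the block, 0 rose and 2 fell: Eya4, a relative of Eya1, at 568 and 250 units in vector and 172 and 143 in Cre cells (-1.24 ± 0.25, SE with the block; limma adjusted p = 0.0219), and Osr1, a zinc finger factor of lateral mesoderm, at 897.5 and 957 against 284.5 and 643.5 (-1.11 ± 0.25; limma adjusted p = 0.0383). Leaving out Cre number 1 moved Osr1 to -0.45, and leaving out vector number 1 moved Eya4 to -0.78. Without the block neither passed (0 of 37). Shox2, a limb homeobox factor, lay lower (-0.71; limma adjusted p = 0.0522 with the block) and Zeb2, a zinc finger repressor related in action to Snail, higher (0.75; 0.0871). The median difference of the 37 was -0.06. Between the numbers, 6 of the 37 were called higher in number 2 and 5 higher in number 1, against 8.46% and 8.26% of all genes. Of these, Lhx8, Irx1 and Scx passed the level filter only through the number in which they were high. Their calls therefore carry no test here.

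Genes of cartilage and bone differentiation, where Sox9 and Runx2 act, were mostly dim. Only 5 of the 22 on the array passed the level filter. With the block 2 were called higher, Acan and Tnfrsf11b, and 0 lower, against 3.25% and 0.984% of all genes. Of these 2 calls, only that of Tnfrsf11b carries a test. Acan, the aggrecan gene of cartilage, read 76.5 and 6.3 units in vector and 360 and 93.2 in Cre cells. It passed the level filter only through the Cre cells, in which it was high, so its difference of 2.17 carries no test here. Tnfrsf11b, the osteoprotegerin gene, rose and read 184 and 29.3 against 483 and 136.5 (1.52 ± 0.23, SE with the block; limma adjusted p = 0.00511, and 0.999 without the block). Col2a1, the cartilage collagen gene, read 83.5 and 76.1 in vector and 258 and 76.3 in Cre cells, so only Cre number 1 stood out (limma adjusted p = 0.352 with the block). Col11a1 differed by 0.42 (limma adjusted p = 0.335 with the block). Without vector number 1 the Acan difference was 3.10 and without vector number 2 it was 1.24. For Tnfrsf11b the values were 2.43 and 0.61.

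Of 20 epithelial adhesion and related genes, among them targets that Snail and Twist factors repress, 10 were tested. Again the background with the block was 3.25% of all genes higher and 0.984% lower. With the block 1 rose, Krt18, a keratin gene of simple epithelia, at 93.6 and 125 units in vector and 527 and 244 in Cre cells (1.58 ± 0.32, SE with the block; limma adjusted p = 0.0213, and 0.684 without the block), and 0 fell. Krt19 read 75 and 1221.5 in vector numbers 1 and 2 and 45.6 and 613 in Cre numbers 1 and 2. It lay lower in Cre cells in both numbers without passing (-0.83; limma adjusted p = 0.0607 with the block), and its numbers differed by 3.77. Esrp2 (-0.51) and Fn1 (0.09) did not pass. Among the settings of the blocked fit that gave a value, Eya4 passed in 7 of 9, Osr1 in 5 of 10, Tnfrsf11b in 7 of 9 and Krt18 in 6 of 9.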

How the data were processed

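Total RNA of 4 samples was hybridized to Affymetrix mouse arrays. The authors deposited 1 MAS5 signal intensity per probe set and array, per the submitters' processing notes; nothing used here states the version or settings. Trimmed means (2% from each end) were 500 on every array. Of 45101 probe sets, 64 controls were left out; 34945 carry 1 symbol, 932 several and 9160 none in the platform annotation. Array medians differed by 0.497 on the log2 scale, so the deposited intensities were quantile normalized and taken as log2(signal + 16), which understates changes of dim genes. The 22519 probe sets whose mean reached the 50th percentile were tested with limma 3.58.1 in R 4.3.3 (lmFit, then eBayes with trend), with Benjamini-Hochberg adjustment over all of them and a threshold of 0.05. A gene is its brightest probe set. SEs and intervals are the model's, with 2 residual and 4.1 prior degrees of freedom, or 1 and 9.81 with the block. By exact permutation, 2 against 2 can reach no p under 0.333 (two-sided).

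The planned model has no block. The numbers were taken as pairs because same-numbered arrays shared sex-linked transcripts. A probe set of Xist gave 11049 (vector) and 9810 (Cre) in number 1, against 41.8 and 58 in number 2. Eif2s3y gave 141 and 228, against 1127 and 1265, so a single sex in number 1 is not settled. Deviations from the group means correlated at 0.603 between same-numbered arrays, over probe sets, which are not independent. The blocked model also gave the contrast between numbers. Scripts were tested on simulated data. Alternatives were other pseudocounts, filters, scalings and moderation, leaving out each array, and the block; the settings combined with the block were added after seeing the data. All members are accounted for, and up to 4 genes of each pathway list are named, those with the smallest p with the block; cell type markers named singly were chosen after their values were seen. Members and lists were chosen with earlier results of these data known.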

Additional observations from a re-analysis of the deposited data

Results flagged for a closer look

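The Cre difference had opposite signs in the numbers for 8 of the 27 tested members, against 36.9% of all genes. With 1 array per genotype in each number, these differences between the numbers could not be tested. As number 2 minus number 1 of the Cre difference (log2), they were -0.22 for Prrx1, -0.43 for Prrx2, 1.04 for Dlx1, -0.99 for Dlx2, -0.75 for En1, 0.81 for Tbx3, -0.51 for Snai1 and -0.51 for Foxc2. Outside the members, Col2a1 showed the same pattern at -1.46.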

How the results depend on the processing

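No alternative without the replicate block called a member between the genotypes, including leaving out each array (0 in each). With the block, 2 members were called, also with a pseudocount of 1, the deposited scaling and no _s_at or _x_at probe sets. With the block, 1 was called with a pseudocount of 64, median centring or robust moderation, and 0 without the filter, with the 75th percentile filter, which left Sox9 and Msx2 untested, or without the trend. Ehmt2 differed by -1.49 and passed with the block, at -1.50, -1.45, -1.51 and -1.62 with pseudocounts of 1 and 64, the deposited scaling and median centring there. It was at -1.49 in the other blocked settings, which it passed except without the trend. Without single arrays it ranged from -1.51 to -1.47. The count of members 2-fold apart without overlap was 0 with a pseudocount of 64 or the 75th percentile filter, and 1 to 4 without single arrays: Dlx2, Eya1 and Tbx5 joined Sox9 without vector 1, Msx2 without Cre 1, and Eya1 and Tbx5 without Cre 2. The 9 members called between numbers became 2 without the filter (Prrx1 and Six2) and 2 others without the trend (Eya1 and Tbx5). Those 2 others carry no test, because they passed the level filter only through the number in which they were high. With the 75th percentile filter the 9 became 4 (Prrx1, Dlx2, Meis2 and Six2). Without _s_at and _x_at probe sets 8 were called, with Snai2 added and Msx1 and Meis2 absent, beside 909 genes higher and 844 lower of 10767. Over all genes, 204 were then higher and 240 lower in number 2 without the filter, of 18193. Without the trend these were 36 and 57 of 11079, and with the 75th percentile filter 765 and 680 of 7083. That contrast leaves no residual degrees of freedom without an array and was not run so. At the 75th percentile, 10 of the 41 members were expressed, against 36.8% of all genes. Called genes between genotypes with the block were 76.8% higher, against 61.6% with median centring.

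Signs turned for Snai1 with the deposited scaling (-0.034) and median centring (-0.14), for Prrx1 with median centring (-0.065) and for Snai2 without _s_at and _x_at probe sets (0.23), with or without the block. Leaving out an array unbalances the numbers. The resulting ranges, for genes whose sign turned, were -0.63 to 0.75 for Prrx1, -0.72 to 0.51 for Dlx1, -1.09 to 0.32 for Dlx2, -0.10 to 0.75 for Msx1, -0.92 to 0.50 for En1 and -0.50 to 0.022 for Meis1. They were -0.14 to 0.65 for Meis2, -0.79 to 0.52 for Six2, -1.28 to 0.21 for Eya1, -0.71 to 0.12 for Tbx3, -0.22 to 1.70 for Tbx5, -0.19 to 0.50 for Tbx18 and -0.24 to 0.0074 for Twist2. They were -0.21 to 0.23 for Snai1, -0.41 to 0.35 for Foxc2, -0.94 to 0.29 for Foxf2, -0.26 to 1.11 for Col11a1, -2.75 to 1.10 for Krt19 and -0.017 to 0.19 for Fn1. Sox9 ranged from -1.18 to -1.14 and Msx2 from 0.67 to 1.17. The cause of these changes was not tested beyond the settings themselves.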
